A study of Mus musculus with 8 samples.

Results

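The mouse HOX clusters are 4 runs of homeobox genes, HoxA on chromosome 6, HoxB on chromosome 11, HoxC on chromosome 15 and HoxD on chromosome 2. Overlapping ATAC-seq peaks of 8 peak lists were merged into 90736 regions, and those with a midpoint from 100 kb before the first to 100 kb after the last of 38 listed Hox genes were kept (mm10). This gave 149 regions: 41 at HoxA, 48 at HoxB, 31 at HoxC and 29 at HoxD. Of these, 90 lay between the first and last listed gene of a cluster and 59 in the flanks.

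Hox genes encode DNA-binding proteins that set position along the body axis in the embryo, and their order on the chromosome follows the order in which they are used from anterior to posterior. Genes with the same number in different clusters are paralogues, and HOX proteins bind DNA together with PBX and MEIS partners. In blood, Hoxa7, Hoxa9 and Hoxa10 are known for their activity in stem cells and leukaemia, and Hoxb4 for expanding stem cells when overexpressed. Polycomb proteins keep Hox genes silent and Trithorax proteins such as KMT2A keep them active.

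The chromatin came from long-term haematopoietic stem cells sorted from mouse bone marrow, with a transposase cutting accessible DNA in 5000 nuclei per library. The study asked what Bcl11a, a zinc-finger transcription factor, does in these cells and what its overexpression does to wild-type stem cells beside them. All mice carried Vav1-cre, which acts in blood cells, with an iMOS Bcl11a allele labelled MUT or WT, and the sort gave 2 populations per genotype, T1 and T2. Each of the 4 groups (MUT T1, MUT T2, WT T1, WT T2) had 2 libraries. The age is labelled 2 to 3 months in one place and 3 months in another. The sources used here do not say which of T1 and T2 carries a transgene, nor whether the 2 libraries of a group came from separate animals, so p-values measure only the spread between these libraries, which may be technical. Of 12 stem cell marker genes, 11 had a region called in all 8 libraries within 1 kb of an end of the gene (Ly6a did not), against 2 of 7 B lymphoid, 1 of 6 T and NK, 2 of 7 granulocyte and monocyte, 3 of 5 erythroid and 4 of 5 endothelial and stromal markers. In all, 64.8% of 21631 protein-coding genes had such a region. Whether a site missed in a list is open in fewer cells or less open in each cannot be told apart.

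The sequences before 5 Hox gene starts are printed below, some with a called region and some without. A start without a called region may still be open below the threshold of a list. They are the 250 bases up to the start from RefSeq (GRCm38.p6), written 5′ to 3′ on the strand of the gene, and 22 of the 38 genes have such an entry. In the first 4 the capitals mark CpG pairs. A region called in all 8 libraries reached into the promoters of Hoxa5 (chr6:52204588-52204837, minus strand) and Hoxa10 (chr6:52240855-52241104, minus strand). No region of any library came within 1 kb of the start of Hoxa6 (chr6:52208673-52208922, minus strand) or Hoxd12 (chr2:74674763-74675012, plus strand). In Hoxa2 (chr6:52164832-52165081, minus strand) the capitals mark a PBX and a MEIS motif.
Hoxa5: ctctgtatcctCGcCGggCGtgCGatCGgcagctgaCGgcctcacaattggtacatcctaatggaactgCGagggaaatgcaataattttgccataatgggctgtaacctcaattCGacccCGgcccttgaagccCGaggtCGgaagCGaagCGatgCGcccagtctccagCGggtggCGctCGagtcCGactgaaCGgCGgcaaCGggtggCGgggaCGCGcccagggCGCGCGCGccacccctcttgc
Hoxa10: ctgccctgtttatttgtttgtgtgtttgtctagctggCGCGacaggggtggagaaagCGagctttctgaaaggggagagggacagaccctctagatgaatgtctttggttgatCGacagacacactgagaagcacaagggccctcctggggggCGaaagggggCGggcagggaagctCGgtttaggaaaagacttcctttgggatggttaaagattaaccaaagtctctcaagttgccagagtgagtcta
Hoxa6: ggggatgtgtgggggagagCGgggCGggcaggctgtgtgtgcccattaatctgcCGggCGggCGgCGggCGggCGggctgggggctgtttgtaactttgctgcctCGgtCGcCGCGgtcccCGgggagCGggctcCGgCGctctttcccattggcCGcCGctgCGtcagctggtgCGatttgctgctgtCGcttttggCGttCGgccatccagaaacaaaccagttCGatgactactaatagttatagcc
Hoxd12: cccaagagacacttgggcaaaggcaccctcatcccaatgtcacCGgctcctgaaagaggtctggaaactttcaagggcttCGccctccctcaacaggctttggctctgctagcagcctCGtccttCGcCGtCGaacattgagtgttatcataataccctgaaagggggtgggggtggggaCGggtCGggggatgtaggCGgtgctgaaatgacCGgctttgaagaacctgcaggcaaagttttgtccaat
Hoxa2: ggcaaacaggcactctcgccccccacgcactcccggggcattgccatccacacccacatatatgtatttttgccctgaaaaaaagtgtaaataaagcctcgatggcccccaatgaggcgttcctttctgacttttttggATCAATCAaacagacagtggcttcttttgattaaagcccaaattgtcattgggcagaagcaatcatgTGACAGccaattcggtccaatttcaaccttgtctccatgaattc

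CpG content and a called region at the start did not go together in these 4, which are too few to decide the question. Hoxa5 has 28 CpG pairs in the printed bases and Hoxa6, with no region at its start, has 24. Hoxa10 has 7 at this start and had a called region, and Hoxd12 has 10 and had none. The other listed start of Hoxa10 has 20 and had a region called in all 8 libraries within 1 kb. Over the 24 Hox starts in the table, in windows of 300 bases that add the 50 bases after the start, the median was 17.5 CpG pairs for the 18 starts with a region called in all 8 libraries within 1 kb and 13 for the 6 without, beside 13 for 21045 promoters of protein-coding genes. The PBX motif TGATTGAT, searched on both strands in these windows, was found at 2 of the 24 Hox starts, Hoxa2 and one start of Hoxd11, beside 0.622% of all promoters. The MEIS motif TGACAG was found at Hoxa2 and Hoxa3, beside 18.3% of all promoters, and the RUNX motif TGTGGT at Hoxd10 alone, beside 14.7%. The ETS motif CCGGAAGT and the GATA motif AGATAA were found at 0 of the 24, beside 5.20% and 9.68% of all promoters. TTTATGG, a motif of posterior HOX proteins, was found at Hoxd4 alone, beside 2.28%. These matches describe letters only.

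The clusters also hold microRNA genes, of which 6 are in the RefSeq table. Apart from Mir615, their mature 5′ arms fall into shared seeds (bases 2 to 8, in capitals). The sequences below are shown because paralogous clusters carry near-identical microRNAs.
miR-196a-5p: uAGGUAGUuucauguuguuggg
miR-196b-5p: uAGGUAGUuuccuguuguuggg
miR-10a-5p: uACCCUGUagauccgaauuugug
miR-10b-5p: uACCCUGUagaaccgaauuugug

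The miR-196 genes share the seed AGGUAGU and lie in HoxA (Mir196b), HoxB (Mir196a-1) and HoxC (Mir196a-2). None of the 3 had a region called in all 8 libraries within 1 kb. Mir196b, between Hoxa9 and Hoxa10 (chr6:52230081-52230165), had 2 regions called in 2 libraries each. The nearest region called in all 8 lay at similar distances, 3273 bp from Mir196b, 3078 bp from Mir196a-1 and 3004 bp from Mir196a-2. The miR-10 genes share ACCCUGU. Mir10b, near Hoxd4 (chr2:74726070-74726137), had a region called in all 8 libraries 672 bp away, and for Mir10a, near Hoxb4 (chr11:96317165-96317274), the nearest such region was 1096 bp away. Mir615 (chr15:103014910-103015001) lies within the Hoxc5 region that was called in all 8.

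Open regions were packed densely in the HOX windows. Merged regions numbered 11.6 per 100 kb there, against 3.54 per 100 kb over the chromosomes, a ratio of 3.27. Their median width was 684 bp, against 685 bp for all regions. Of the 149, 78 (52.3%) were called in all 8 libraries, beside 54.6% of all regions, and 15 (10.1%) in only 1 library, beside 11.6%. Both shares lie near those of the genome. By cluster, 23 of 41 HoxA regions, 26 of 48 HoxB regions, 13 of 31 HoxC regions and 16 of 29 HoxD regions were called in all 8. Between the first and last gene, HoxD had 6 of 20 regions called in only 1 library, where HoxA had 0 of 21, HoxB 1 of 30 and HoxC 1 of 19.

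**Figure D1:**
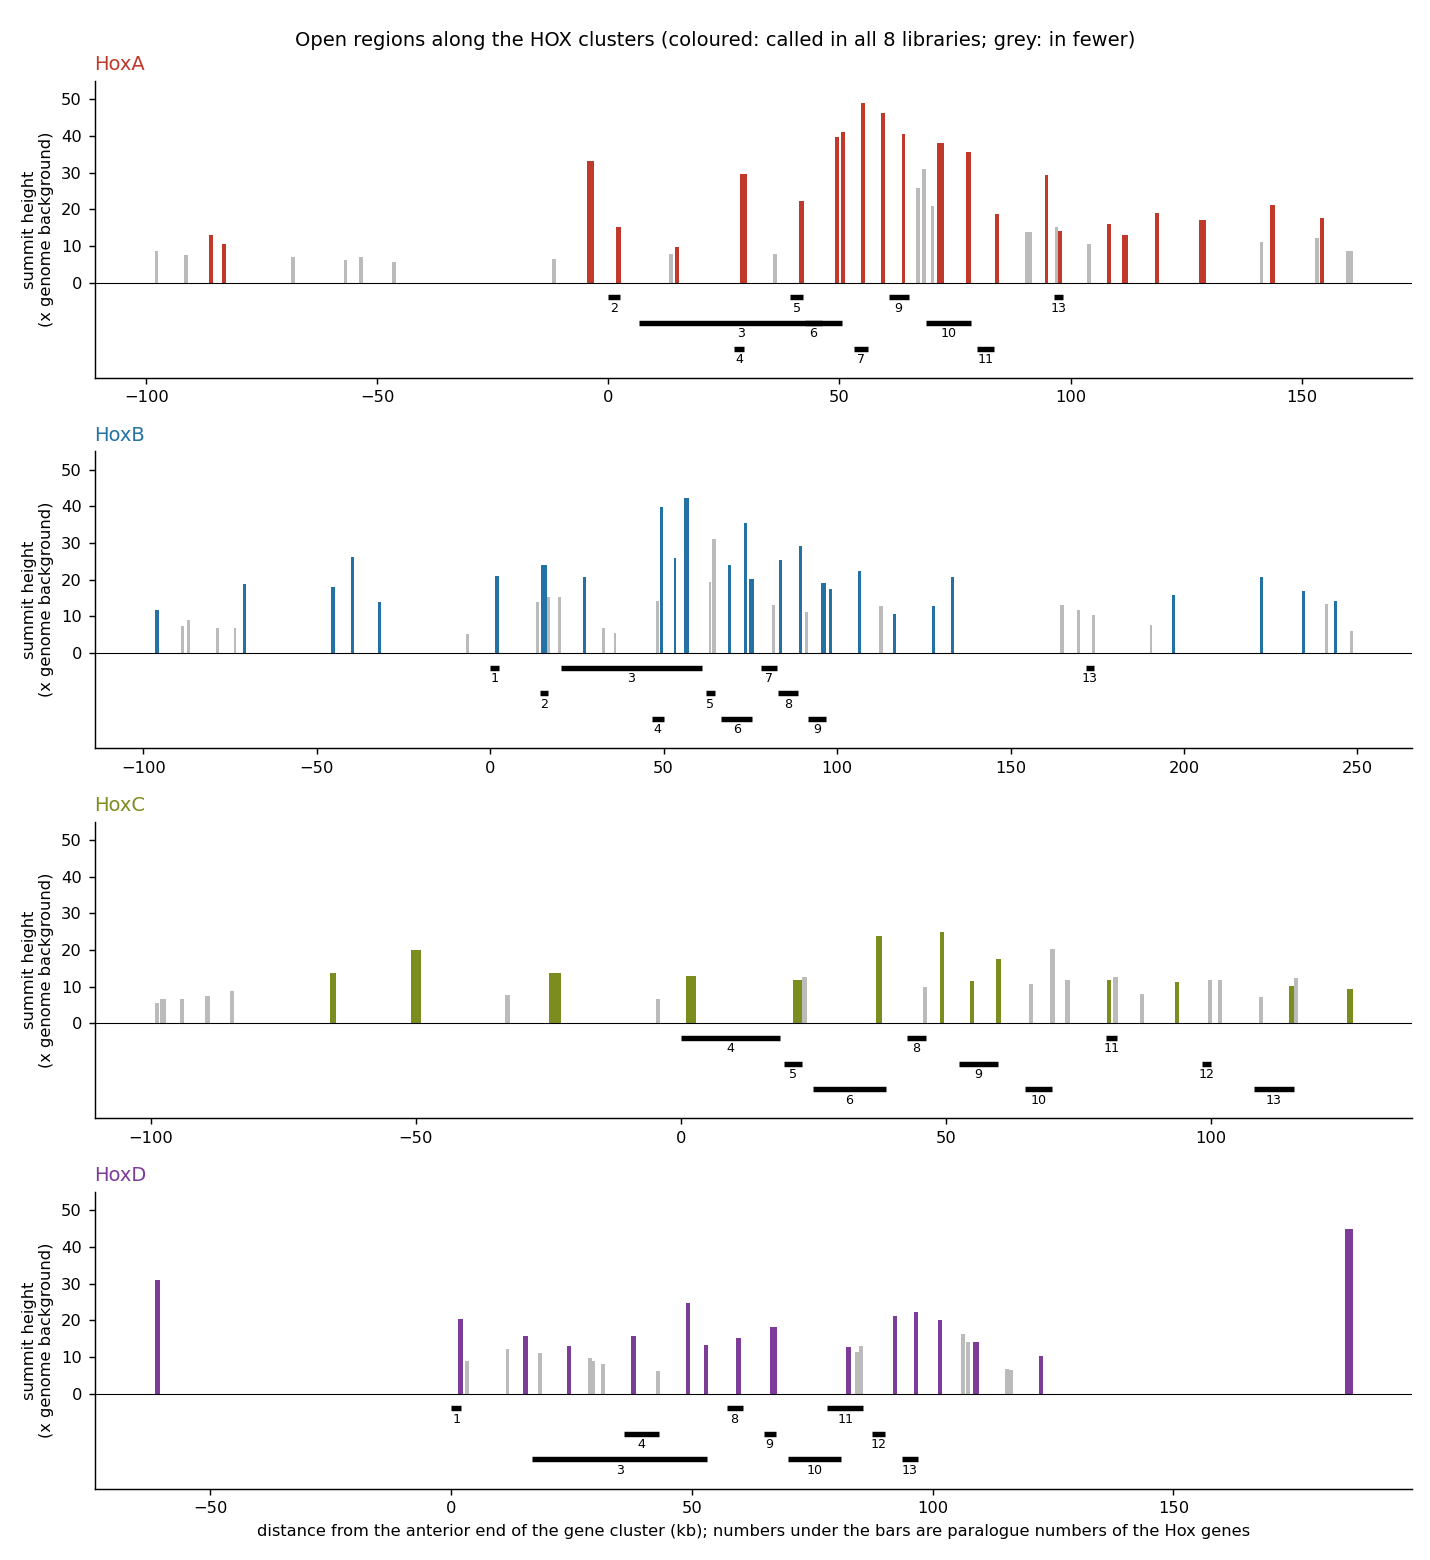
Regions along the 4 HOX clusters. The horizontal axis is the distance in kb from the anterior end of the listed genes, bars give the median summit height over the libraries that called a region as a multiple of the genome background, colour marks regions called in all 8 libraries, grey those called in fewer, and black lines are Hox gene spans with their paralogue numbers. The highest bars between the first and last genes stand over Hoxa7 (49.0 times), beside the Hoxa9 span (46.2 times) and over Hoxb3 (42.2 times). Next come the upstream end of Hoxa3 (41.1 times), Hoxa9 itself (40.7 times) and Hoxb4 (39.9 times), while no bar stands over Hoxd12.

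Over the whole windows, flanks included, HoxA and HoxB were more densely open than HoxC and HoxD in every library. The called regions per 100 kb of window averaged 10.4 ± 0.895 (SD, n = 8 libraries) at HoxA, 9.86 ± 0.898 at HoxB, 7.17 ± 0.654 at HoxC and 6.90 ± 0.476 at HoxD. HoxA exceeded HoxC by 3.22 ± 0.539 (SD of the within-library difference) and HoxD by 3.48 ± 0.859, in 8 of 8 libraries each. HoxB exceeded HoxC by 2.70 ± 0.719 and HoxD by 2.96 ± 0.888, again in 8 of 8. Each of these 4 differences had p = 0.00781, the smallest possible, in the exact two-sided sign-flip permutation test, and 0.0117 after Benjamini-Hochberg adjustment over 6 pairs. HoxA and HoxB differed by 0.525 ± 0.944 (adjusted p = 0.216, exact sign-flip permutation test, HoxA higher in 6 of 8), and HoxC and HoxD by 0.262 ± 0.781 (adjusted p = 0.367, HoxC higher in 6 of 8). The last difference passed without WT T2 replicate 1 (0.498, adjusted p = 0.0375 by the same exact test), and its direction turned in 3 alternatives.

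Within each cluster the stretch that holds the genes had more called regions per 100 kb than its flanks. HoxA had 17.3 ± 1.09 called regions per 100 kb between its first and last listed gene and 7 ± 0.926 in the flanks. HoxB had 13.4 ± 1.53 and 6.81 ± 0.594, HoxC 12.3 ± 1.44 and 4.19 ± 0.458, and HoxD 13.9 ± 1.23 and 3.5 ± 0.267 (SD, n = 8 libraries). All 4 differences held in 8 of 8 libraries (exact sign-flip permutation p = 0.00781 each, also after adjustment over the 4 clusters). Between the first and last gene alone, HoxA was denser than HoxB and HoxC in 8 of 8 libraries and than HoxD in 7 of 8, while HoxB was denser than HoxC in 5 of 8 and than HoxD in 4 of 8, with no test. HoxD had the lowest density in the flanks: on its anterior side 1 region, at Mtx2, was found in 100 kb.

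**Figure D2:**
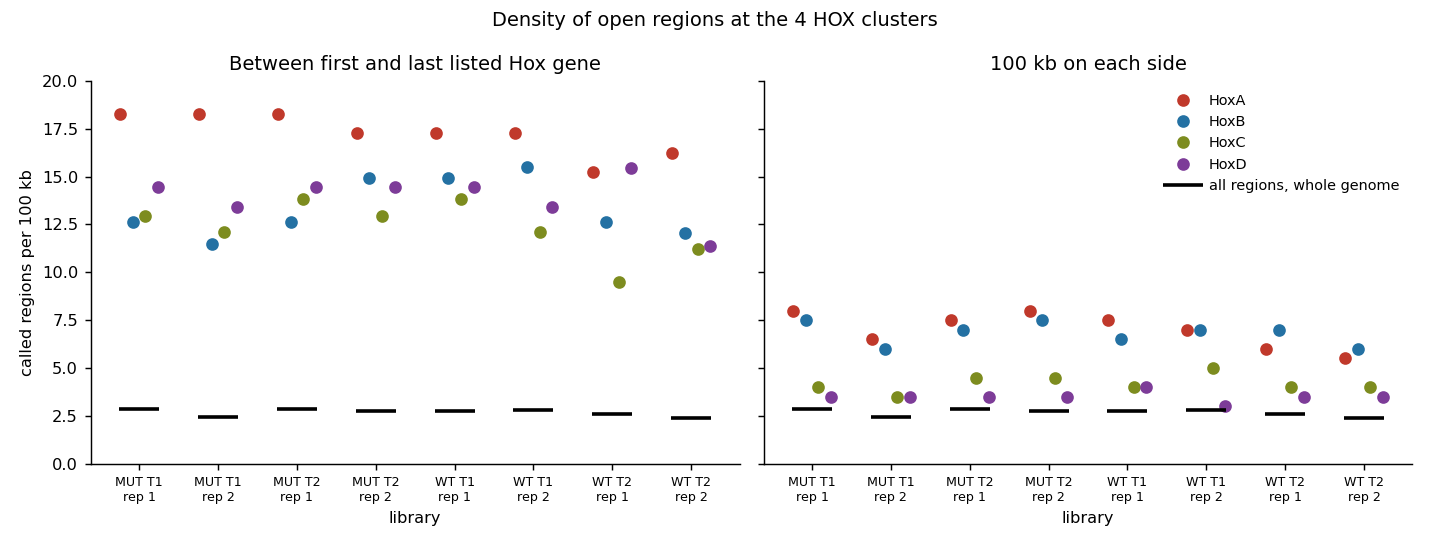
Called regions per 100 kb (vertical axis) in each of the 8 libraries (horizontal axis), between the first and last listed Hox gene (left) and in the flanks (right), with the level over all chromosomes as black lines. Each point is a cluster in a library, and HoxA is the highest point on the left in 7 of 8 libraries.

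The deposited fold enrichment and the height of the pileup put HoxA at opposite ends of the order of the clusters. Fold enrichment, the authors' own value for each peak, divides the summit by the local background around it, so both were solved from the deposited ratio and p-value and expressed as multiples of the genome background of the library. Peaks within HoxA had the lowest median fold enrichment of the 4 clusters in 8 of 8 libraries, 3.06 to 4.12 (median 3.40), which stood at percentiles 3.38 to 10.1 of the peaks of their own lists. The same peaks had the highest median summits in 8 of 8 libraries, 22.8 to 36.4 times the genome background, at percentiles 62.4 to 79.7. Their local background was also the highest in 8 of 8, at 4.83 to 5.77 times the genome background, where the median peak of a whole list had 1.81 to 2.01 times. Median summits within the other clusters were 19.8 times (HoxB), 12.2 times (HoxC) and 15.4 times (HoxD) over the libraries, with local backgrounds of 4.30, 2.73 and 3.08 times and fold enrichments of 4.28, 4.10 and 4.37. Peaks covered 10.5% to 13.1% of the bases within HoxA, more than in the other 3 clusters in 8 of 8 libraries (medians 8.76%, 7.56% and 8.23% for HoxB, HoxC and HoxD). HoxA, HoxB and HoxC had a higher local background within the genes than in the flanks in 8 of 8 libraries, and HoxD a lower one in 8 of 8. Median fold enrichment was higher within the genes in 0 of 8 libraries at HoxA, HoxB and HoxC, and in 3 of 8 at HoxD. Median summits were higher within the genes in 8 of 8 libraries at HoxA and HoxB, 7 of 8 at HoxC and 2 of 8 at HoxD.

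**Figure D3:**
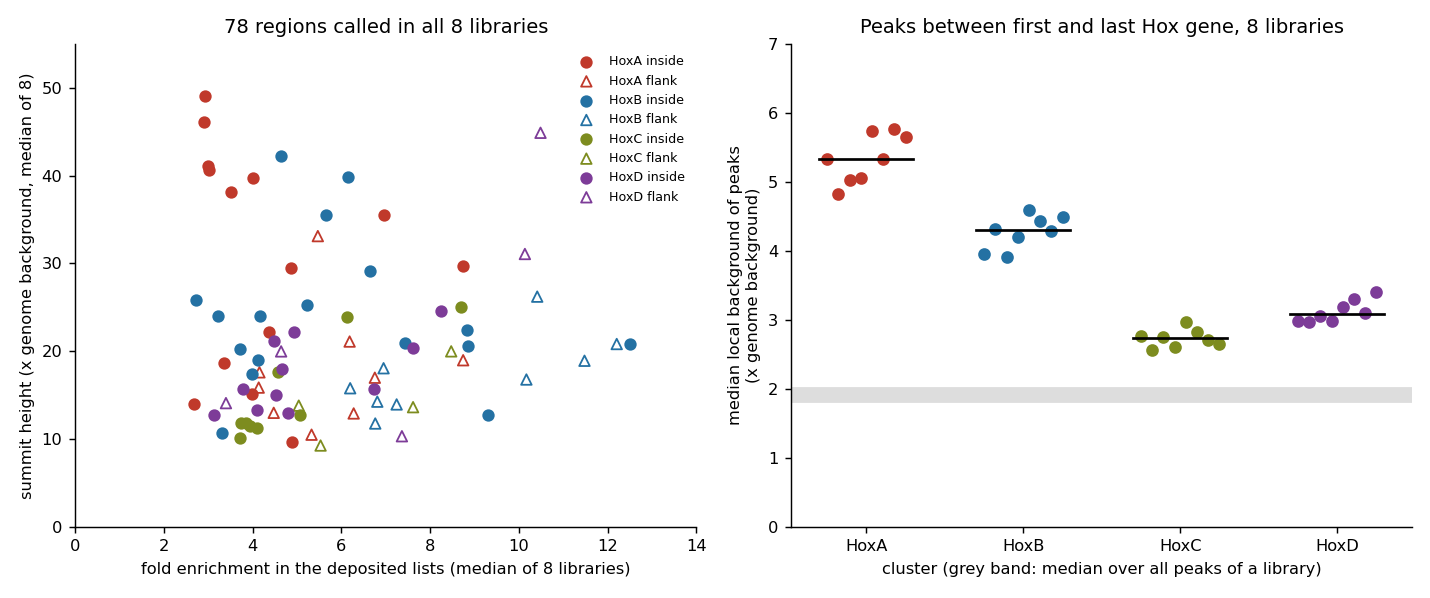
Left, fold enrichment in the deposited lists (horizontal axis) against summit height as a multiple of the genome background (vertical axis), both as the median of 8 libraries, for the 78 regions called in all 8, with filled circles between the first and last gene and open triangles in the flanks. Right, the median local background of peaks within each cluster (points are the 8 libraries, lines their median), with the medians over all peaks of the libraries as a grey band. Tall HoxA regions gather at fold enrichments near 3, and HoxA has the highest local background.

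The tallest regions among the genes of HoxA lay between the upstream end of Hoxa3 and Hoxa10, with the highest at Hoxa7. At Hoxa7 (chr6:52217077-52218008) the summit stood at 42.0 and 49.1 times the genome background in MUT T1, 47.0 and 49.6 (MUT T2), 41.6 and 48.9 (WT T1), and 49.4 and 50.1 (WT T2). The local background there was 14.5 to 17.2 times, so the fold enrichment was 2.49 to 3.38. Groups overlapped except that both WT T2 values exceeded those of MUT T1 and WT T1, and heights in such multiples ran higher across the lists of the shallow libraries (median peak 18.0 to 20.1 times in the 3 shallow ones against 13.9 to 15.3 times in the other 5). In every list this region ranked at percentiles 86.6 to 97.9 by height and at 0.746 to 5.08 by fold enrichment.

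Hoxa9, known for driving leukaemia when overexpressed, had 2 such regions. The one beside the gene (chr6:52221389-52222356) reached 38.1 and 47.7 times the genome background in MUT T1, 45.7 and 35.4 (MUT T2), 46.6 and 45.0 (WT T1), and 53.5 and 65.4 (WT T2). The highest values were those of WT T2, and the other groups overlapped. The one within the gene (chr6:52225851-52226680) stood at 37.3 to 50.6 times with a fold enrichment of 2.74 to 3.78, and MUT T1 replicate 2 was the highest. Hoxa10, which acts in the same cells, differed in that its upstream region (chr6:52239876-52240962) lay on a lower local background (median 4.97 times): its fold enrichment was 6.06 and 7.70 (MUT T1), 7.43 and 6.46 (MUT T2), 5.14 and 5.69 (WT T1), and 7.44 and 8.45 (WT T2). Both WT T1 values lay below those of every other group. Fold enrichment also ran higher in the shallow lists as a whole (median 7.14 to 7.66 against 6.16 to 6.65 in the other 5). A second Hoxa10 region (chr6:52233438-52235071), over an alternative start, had a median fold enrichment of 3.50 on a background of 10.4 times.

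Summits at the anterior HoxA genes varied. The region shared by the Hoxa4 span and the longer Hoxa3 span (chr6:52190975-52192434) had the highest fold enrichment between the first and last HoxA gene, 7.45 to 9.60, at a summit of 29.7 times (median), with the lowest value in MUT T2 replicate 2. Hoxa2, an anterior gene of the hindbrain, had a summit of 15.1 times, and the region shared by Hoxa5 and Hoxa6 22.2 times. At the upstream end of Hoxa3, 2 neighbouring regions, chr6:52211439-52212230 and chr6:52212741-52213581, reached 39.7 and 41.1 times with fold enrichments of 4.004 and 2.98 (medians), beside 40.7 times at the Hoxa9 region within the gene. On the posterior side, Hoxa11 and Hoxa13, genes of limb and genital development, had summits of 18.6 and 14.02 times. In the flank beyond Hoxa13, chr6:52280795-52281643 had a fold enrichment of 8.18 to 10.99, chr6:52290237-52291795 one of 5.87 to 8.74 and chr6:52305664-52306642 one of 5.61 to 6.75. The longest gap between regions called in all 8 within HoxA was 13.5 kb, before the Hoxa4 region.

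In HoxB the tall regions lay in the middle of the cluster. At Hoxb4 (chr11:96318370-96319157) the fold enrichment was 5.12 and 6.53 (MUT T1), 6.04 and 5.80 (MUT T2), 6.24 and 5.50 (WT T1), and 6.39 and 6.45 (WT T2). The 4 groups overlapped apart from WT T2, which exceeded MUT T2 and WT T1 in both libraries. Its summit was 39.9 times the genome background (median), and that of a Hoxb3 region (chr11:96311016-96312237) was 42.2 times. Hoxb6, Hoxb8 and Hoxb7 followed with 35.5, 29.1 and 25.3 times, and Hoxb2, Hoxb1 and Hoxb9 with 23.99, 20.9 and 19.03 times. A second region in the Hoxb3 span (chr11:96340699-96341338) had a fold enrichment of 7.36 to 10.5.

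The highest fold enrichments of HoxB lay away from the genes. Between Hoxb13 and Hoxb9, with no Hox gene within 1 kb, chr11:96234680-96235379 had 11.1 and 12.4 (MUT T1), 10.98 and 9.54 (MUT T2), 15.4 and 12.6 (WT T1), and 14.7 and 14.5 (WT T2). All 4 WT values exceeded all 4 MUT values. This ordering was noticed after the values were seen, was not tested, and compares values from separately called lists. A neighbour at chr11:96240163-96240790 had 8.62 to 11.9. In the flanks, the Ttll6 region (chr11:96145522-96146335) had 10.9 to 14.7, chr11:96438570-96439363 had 8.84 to 14.5 and chr11:96133410-96134252 had 8.49 to 13.4. These 5 lay on local backgrounds of 1 to 1.43 times (medians), far below those at the genes.

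HoxC had the lowest median summits of the clusters within the genes in every library, but some of its regions were tall. Its tallest region lay between Hoxc9 and Hoxc8, outside both genes (chr15:102987201-102987863), with a fold enrichment of 8.96 and 10.2 (MUT T1), 10.4 and 7.74 (MUT T2), 8.41 and 8.50 (WT T1), and 8.40 and 8.89 (WT T2). Both MUT T1 values exceeded those of WT T1 and WT T2, and the other groups overlapped. Its summit stood at 25.02 times, close to that of the tallest region among the HoxD genes (24.6 times). At Hoxc6 (chr15:102998924-103000090) the fold enrichment was 5.23 to 7.64 and the summit 23.9 times, with WT T2 highest in both libraries. Hoxc9 had 17.6 times, and Hoxc4, Hoxc11, Hoxc5 and Hoxc13 had 12.8, 11.8, 11.8 and 10.2 times. In the anterior flank chr15:103085838-103087683 had a fold enrichment of 6.39 to 9.84 and chr15:103101875-103102966 one of 5.72 to 9.53. The longest gap within HoxC, 20.9 kb, ran from Hoxc13 over Hoxc12.

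HoxD had regions called in all 8 libraries at both ends, along the Hoxd3 span and at Hoxd8, Hoxd9 and Hoxd11. Hoxd1, at the anterior end (chr2:74762706-74763672), had a fold enrichment of 7.81 and 7.60 (MUT T1), 7.61 and 7.61 (MUT T2), 6.48 and 7.23 (WT T1), and 9.99 and 9.76 (WT T2), with both WT T2 libraries, which are shallow, above all others. Hoxd13, at the posterior end, stood at 22.1 times the genome background (median), close to Hoxd1 at 20.3 times. The tallest region among the genes, in the Hoxd3 span (chr2:74715699-74716356), had a summit of 24.6 times, and that shared by Hoxd3 and Hoxd4 (chr2:74726809-74727785) a fold enrichment of 5.83 to 7.08. Hoxd9, Hoxd8 and Hoxd11 had 18.0, 15.03 and 12.7 times. The tallest regions of the HoxD window were those of its neighbours: Lnpk (chr2:74577953-74579445) at 44.9 times with a fold enrichment of 8.83 to 12.3, and Mtx2 (chr2:74825487-74826724) at 31.1 times with 9.71 to 11.8. A region at chr2:74642262-74642945 had 6.06 to 8.38.

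Of the 38 Hox genes, 31 (81.6%) had a region called in all 8 libraries within 1 kb of the span, beside 73.3% of protein-coding genes. Within 1 kb of a span end it was 27 (71.1%) beside 64.8%, and within 1 kb of a start in the promoter table it was 17 of 22 (77.3%) beside 65.3%. The spans of Hoxa3, Hoxb3 and Hoxd3 are 44.0, 40.8 and 36.3 kb long and run over other Hox genes, so they share regions with them. All 10 HoxA genes had one, as did 8 of 10 HoxB, 6 of 9 HoxC and 7 of 9 HoxD genes. By paralogue group, 11 of 11 genes numbered 1 to 4 had one within 1 kb of the span, 9 of 11 numbered 5 to 8, and 11 of 16 numbered 9 to 13. Within 1 kb of a span end the counts were 8 of 11, 9 of 11 and 10 of 16. At starts in the promoter table they were 7 of 8, 3 of 5 and 7 of 9. The order of the 3 paralogue groups thus changed with the measure.

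The 7 genes without one were Hoxb5, Hoxb13, Hoxc8, Hoxc10, Hoxc12, Hoxd10 and Hoxd12. Hoxb5 had a tall region (chr11:96303117-96304177, 31.1 times) called in 6 libraries, with a fold enrichment of 4.13 in MUT T1 replicate 1, 3.99 and 4.10 (MUT T2), 3.73 and 3.55 (WT T1) and 2.44 in WT T2 replicate 1. The 2 libraries without it, MUT T1 replicate 2 and WT T2 replicate 2, were the 2 shallowest. Hoxb13 and Hoxc8 missed 1 library each, and Hoxc10 had at most 5. Hoxc12 had a region in 1 library, and Hoxd10 and Hoxd12, posterior genes of the limb, had none within 1 kb in any. In the 5 deeper libraries alone, 33 of the 38 genes had a region called in every library. Asking for fewer libraries can only keep or raise the count, and no share of all genes is given beside it.

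Other genes of the HOX system were mostly open at an end of the span in all 8 libraries, beside 64.8% of protein-coding genes. This was so for 9 of 9 genes of the TALE partners (Pbx, Meis and Pknox genes), for 10 of 10 activators of Hox genes, among them Kmt2a and Dot1l, and for 12 of 13 Polycomb repressors, all but Cbx7. Of the caudal and ParaHox genes 4 of 6 were, with Cdx2 and Cdx4 among them and Cdx1 not. Among 13 neighbours of the clusters 11 were. The other two, Evx1 and Evx2, are homeobox genes beside HoxA and HoxD. Of 24 further homeobox genes 19 were, and of 3 boundary factors Ctcf and Maz but not Rad21. These exceptions concern the span ends only. Within 1 kb of the whole span, all 13 repressors, 13 neighbours and 3 boundary factors had a region called in all 8. The same held for 5 of 6 caudal and ParaHox genes and 21 of 24 further homeobox genes, beside 73.3% of protein-coding genes. Cbx7 also had such a region within 1 kb of its annotated start.

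No difference in the number of called HOX regions between genotypes or populations passed the test. MUT T1 libraries had 115 and 104, MUT T2 115 and 119, WT T1 117 and 115, and WT T2 104 and 99. The 3 lowest values were those of the 3 shallowest libraries, the 2 of WT T2 and replicate 2 of MUT T1, whose genome backgrounds were 2.45, 1.89 and 2.04 fragments per position against 3.10 to 3.38 in the other 5. MUT libraries averaged 113 ± 6.45 (SD, n = 4) and WT libraries 109 ± 8.66, a difference of 4.5 (exact two-sided permutation p = 0.486, adjusted over 10 tests 0.952). T1 and T2 libraries averaged 113 ± 5.91 and 109 ± 9.32, a difference of 3.5 (exact permutation p = 0.657, adjusted 0.952). With equal numbers of peaks per list both differences turned, to -6.75 and -2.75.

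HoxA had the lowest p of the single clusters. It had 34 and 31 called regions in MUT T1, 33 and 33 (MUT T2), 32 and 31 (WT T1), and 27 and 27 (WT T2). The low values were those of WT T2, and MUT exceeded WT by 3.5 (exact permutation p = 0.0857, adjusted 0.857). With equal numbers of peaks the HoxA difference was -0.75. HoxB, HoxC and HoxD differed by -0.75, 1.25 and 0.5 between MUT and WT (adjusted p 0.952 each in the exact permutation test), and none of the 10 tests passed, unadjusted or adjusted. Of the 56 regions called in 2 to 7 libraries, 41 were called in a larger share of the 5 deeper than of the 3 shallower libraries and 15 in a smaller share. The same split over all merged regions is not given, so this cannot be read as particular to HOX regions. With the recovered pileups thinned to equal depth, the libraries held 99 to 110 called HOX regions, MUT exceeded WT by 0.5 over all clusters and by 1.5 at HoxA, and T1 and T2 had the same mean.

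No HOX region was called in all 4 libraries of a genotype and in none of the other, where 0.222% of all regions were in MUT alone and 0.0606% in WT alone. Likewise none separated T1 from T2 (0.0507% and 0.0265% of all regions). Between pairs of groups, a region counted as gained when both libraries of the first group called it and neither of the second did, and lost in the reverse case, with no test because 2 libraries face 2. The 4 pairwise comparisons share groups and are given side by side.

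MUT T1 against WT T1 gained 3 regions and lost 3 of 149 (1.26% and 2.13% of all regions). The gained ones lay in the Hoxa3 span (chr6:52198269-52198627), in the Hoxd3 span (chr2:74746473-74747041) and between Hoxc12 and Hoxc11 (chr15:102949569-102950092). The Hoxa3 region had a fold enrichment of 4.48 and 5.66 in the 2 MUT T1 libraries and was called in no other library. The lost ones lay at Hoxb5 (chr11:96304589-96305133), at Hoxb4 (chr11:96319926-96320249) and at Hoxc10 (chr15:102966485-102967022). The Hoxb5 and Hoxb4 ones were called in the 2 WT T1 libraries only, at 2.36 and 2.43 and at 2.80 and 2.82. The Hoxc10 one had 5.14 and 4.92 (MUT T2), 4.35 and 5.20 (WT T1) and 6.31 in WT T2 replicate 1, and was missing from both MUT T1 libraries and from WT T2 replicate 2. Leaving out 1 library raised this comparison from 6 regions to between 13 and 20 for each of its 4 libraries. Dropping a library of the comparison loosens the rule, which by itself raises such counts.

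MUT T2 against WT T2 gained 8 and lost 0 (3.95% and 0.457% of all regions), with both WT T2 libraries among the shallow ones. Among the 8 were regions at Hoxa10 (chr6:52232210-52232891), Hoxa13 (chr6:52259008-52259701) and Hoxd11 (chr2:74679669-74680262). The Hoxa13 one was called in all 6 libraries outside WT T2 at 2.52 to 3.16, and the Hoxa10 one at 1.90 and 2.11 (MUT T2) and 1.82 in WT T1 replicate 2. The others lay between Hoxc11 and Hoxc10 (chr15:102963616-102964233) and in the flanks (chr11:96454878-96455705, chr6:52093917-52094433, chr6:52150378-52150851 and chr6:52315520-52316017). With equal numbers of peaks the count became 4 gained and 9 lost, and thinned to equal depth 7 gained and 0 lost.

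Between the populations, WT T1 against WT T2 gained 6 and lost 0 (3.90% and 0.632% of all regions), and MUT T1 against MUT T2 gained 2 and lost 4 (0.641% and 1.74%). Both WT T2 libraries are shallow, and the WT split became 3 gained and 6 lost with equal numbers of peaks and 4 gained and 2 lost when thinned to equal depth. The 6 gained in WT T1 were those at Hoxb5, Hoxb4, Hoxa13 and chr11:96454878-96455705 named above, and regions at chr15:102934824-102935477 and chr6:52105184-52105872. The MUT T1 gains were the Hoxa3 and Hoxd3 regions, and the losses those at Hoxc10, Hoxa10, chr6:52150378-52150851 and chr11:96198549-96198818. Most differing regions had low fold enrichments, and the highest value of any was 6.48. 

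**Figure D4:**
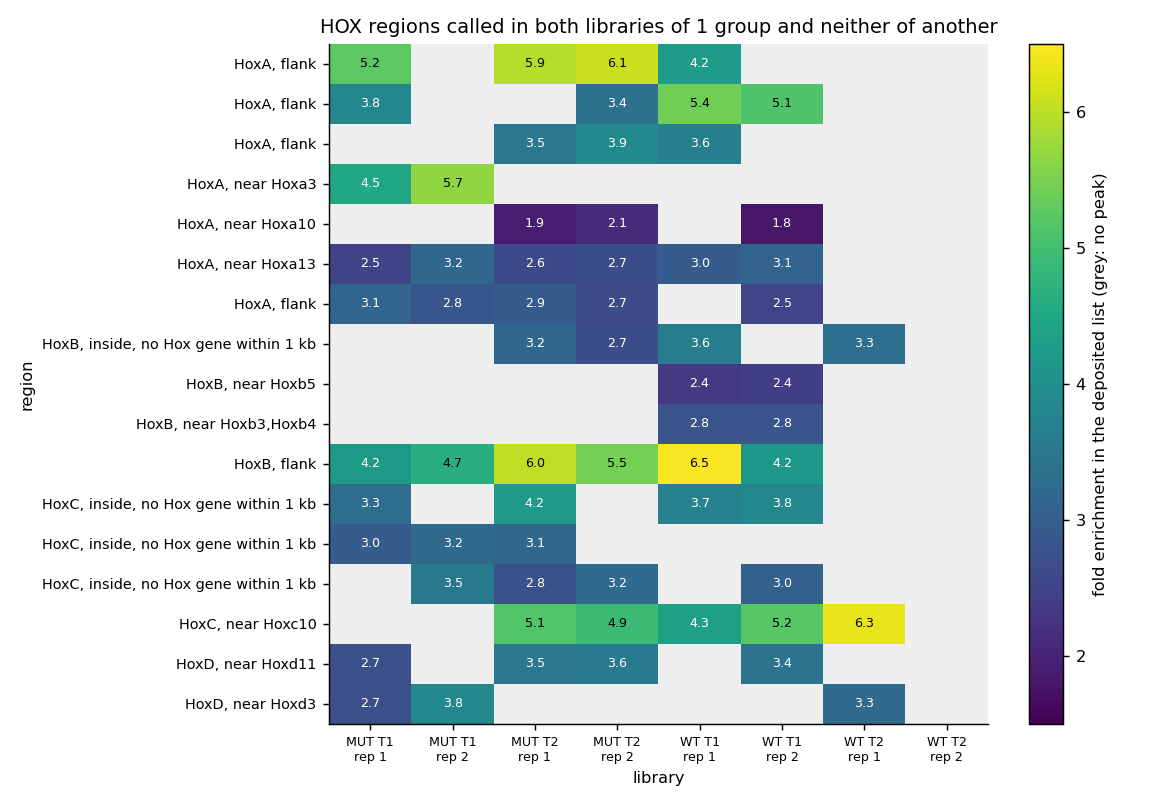
Fold enrichment in the deposited lists (number and colour) of the HOX regions that were called in both libraries of a group and in neither of another, with regions as rows, the 8 libraries as columns and grey where a list has no peak. WT T2 replicate 2 has no peak in any row, and the Hoxa3 region stands in MUT T1 alone.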

How the data were processed

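For each ATAC-seq library the authors deposited 1 peak list with, per peak, the caller's score, the ratio of summit to local background (fold enrichment), a −log10 p-value and a −log10 q-value. Per the submitters' processing notes, Bowtie2, SAMtools, MACS2 and the mm10 build were used. Their versions, and any shift of cut sites, are not stated in the sources used here. The deposited −log10 q-values start at 3.00. Overlapping peaks (1 bp or more, chromosomes 1 to 19 and X) of all lists were merged, and a library called a region if one of its peaks overlapped it by 1 bp. Summit pileup and local background were solved from each peak's ratio and p-value (Poisson tail, tolerance 0.001) for at least 99.987% of peaks. The lowest local background of a list served as its relative depth. Lists hold no read totals, so no interval from depth is given, and a region missing from a list may be open below its threshold.

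Gene spans, starts and sequences came from RefSeq tables of GRCm38.p6, the build of mm10. All 38 genes matched, and the tables do not say whether a region is exonic or intronic. Counts of regions were compared with exact permutation tests over libraries, and densities with exact sign-flip tests within libraries, two-sided, with Benjamini-Hochberg adjustment. The alternatives were a stricter q-value, another overlap, equal list lengths, thinning to equal depth, summit windows, 50 kb flanks, shares, blocks and leaving out each library. An overlap of 50% of the region and a subset of the 5 deeper libraries were chosen after seeing the data. Named were all Hox genes, the 5 regions per cluster with the highest smallest fold enrichment, and the regions gained or lost. Summit heights and further regions were chosen after their values were seen. The members and lists were chosen with earlier results of these data known. Scripts were tested on simulated data. Python 3.11.15, NumPy 2.4.6, pandas 2.3.3, SciPy 1.17.1 and Matplotlib 3.10.9 were used.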

Additional observations from a re-analysis of the deposited data

Results flagged for a closer look

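In groups of 4 libraries, the lowest or highest count can stand apart from the rest, which chance alone brings about in 1 of 20 groups. MUT T1 replicate 2 had 104 HOX regions where the other 3 T1 libraries had 115 to 117. This library was also the shallowest of the T1 libraries, with a genome background of 2.04. At HoxD, MUT T1 replicate 2 had 20 called regions where the other 3 MUT libraries had 21 each, a gap of 1 region. At HoxC the difference between MUT and WT went opposite ways in the populations: -2 in T1 and 4.5 in T2, a difference of -6.5. It had the smallest p that an exact permutation within the populations can give, 0.0556, and 0.185 after adjustment over 5 tests. That smallest p lies above 0.05, so this test could not pass whatever the counts.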

How the results depend on the processing

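Over the alternatives, 4 of the 6 differences in density between clusters and all 4 between genes and flanks kept their direction and passed. Leaving out each library gave 2.91 to 3.34 (HoxA less HoxC), 3.36 to 3.84 (HoxA less HoxD), 2.46 to 2.84 (HoxB less HoxC), 2.73 to 3.12 (HoxB less HoxD), 0.339 to 0.779 (HoxA less HoxB) and 0.127 to 0.498 (HoxC less HoxD) regions per 100 kb. HoxC less HoxD turned to -0.386 with equal numbers of peaks, to -0.0965 where peaks had to cover 50% of the region and to -0.298 with 50 kb flanks. In the 5 deeper libraries alone, with no test, the 6 differences were 3.32, 3.92, 2.77, 3.37, 0.547 and 0.596.

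With equal numbers of peaks, MUT less WT turned to -6.75 over all clusters, -0.75 at HoxA, -1.25 at HoxC and -2.5 at HoxD, and T1 less T2 to -2.75 over all clusters, -2.25 at HoxB and -3.25 at HoxC. T1 less T2 at HoxC was also -0.25 at the stricter threshold, -1 thinned to equal depth, -0.5 with summit windows and -1 with 50% cover. As shares of all called regions, MUT less WT was -0.000361 percentage points at HoxD and T1 less T2 -0.000525 at HoxB. Leaving out each library gave MUT less WT of 1.25 to 7.58 over all clusters, -2.25 to 0.75 at HoxB (0.5 without WT T1 replicate 2) and -0.25 to 1.08 at HoxD. It gave T1 less T2 of 0.0833 to 6.42 over all clusters, -0.5 to 2.5 at HoxB (-0.417 without WT T2 replicate 2) and -0.333 to 1.67 at HoxC. The cause was not tested, and no such difference passed in any alternative. The tests with blocks could not have passed at 0.05.

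Regions gained or lost between MUT T1 and MUT T2 numbered 2 at the stricter threshold and 10 with equal numbers of peaks, and those between MUT T2 and WT T2 13 with equal numbers, 5 with 50% cover and 5 with 50 kb flanks. All T1 against all T2 gave 1 with equal numbers. Leaving out a library, which leaves 1 library in a group, gave 6 to 20 (MUT T1 against WT T1), 8 to 21 (MUT T2 against WT T2), 6 to 24 (MUT T1 against MUT T2), 6 to 17 (WT T1 against WT T2) and 0 to 1 (all MUT against all WT). Smaller groups meet the rule more easily, so higher counts follow from the rule itself. Hox genes with a region in every library fell from 31 to 19 where peaks had to cover 50% of the region. The planned overlap of 50% of the shorter of region and peak changed nothing, because every peak lies within its merged region.

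With replicate number as a block, MUT less WT was 4.5 over all clusters (exact permutation p = 0.5, adjusted 0.972). Blocks leave too few arrangements for any p below 0.05, so no blocked test could pass. Same-numbered libraries deviated together with correlations of 0.0023 to 0.0712. With 2 libraries per group the deviations mirror each other, so these values cannot decide whether the numbers mark pairs. The labels do not say so either, and same-numbered libraries were not treated as pairs outside the blocked tests.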
